A study of Mus musculus with 4 samples.

Results

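The subunits of the mitochondrial respiratory chain that are encoded in the nucleus were described in Flk-1-positive cells sorted by a Hoxb6 reporter. Members were the genes whose symbols carry the stems of the NADH dehydrogenase (Nduf), succinate dehydrogenase (Sdh), cytochrome bc1 (Uqcr), cytochrome c oxidase (Cox4 to Cox8) and ATP synthase (Atp5) subunits. Of 105 such symbols in the gene table, 18 of them annotated as pseudogenes, 84 had a named probe on the array, among 20654 named genes with a value on every array. The pattern also takes in Cox7a2l, a factor that helps to join complexes into supercomplexes. It leaves out Cyc1 and Ndufab1, which are subunits too.

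The RFP-positive group was the Flk-1+Hoxb6-RFP+ fraction and the RFP-negative group the Flk-1+Hoxb6-RFP- fraction, with 2 one-colour Agilent arrays each. Both were derived from mouse embryonic stem cells of the EB5 line, in which Hoxb6 drives red fluorescent protein (RFP), after 6 days of differentiation on OP9. OP9 is a mouse bone marrow stromal feeder line, so that feeder transcripts in the sorted cells would be read by the same probes. Nothing in the labels says that the replicates came from separate cultures, so that every p-value measures only the spread between these samples, which may be technical. In RNA from a mixed fraction, fewer cells of a type and less RNA per cell cannot be told apart.

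The respiratory chain sits in the inner mitochondrial membrane. Complex I takes electrons from NADH and complex II from succinate, complex III passes them from ubiquinol to cytochrome c, and complex IV hands them to oxygen. Proton pumping by complexes I, III and IV drives complex V, the ATP synthase. The mitochondrial genome encodes a few catalytic subunits, not analysed here, and the members described below supply most of the rest. Several subunits of complex IV exist as a common form and a form made mainly in muscle, lung, testis or under low oxygen.

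Between 55.2% and 59.3% of the 59305 spots that were not controls were marked by the scanner software as well above background, and RFP-positive replicate 2 had the highest share. Kdr, which encodes Flk-1, was measured on all 4 arrays, at 4.41 and 4.36 in RFP-positive and 4.18 and 4.33 in RFP-negative cells. For Hoxb6 no array gave a signal well above background, so that the probe cannot serve to check the sort. Levels are given as log2 signal, with each array's 75th percentile set to 0, and a difference is the RFP-positive mean minus the RFP-negative mean in log2 units, with its standard error (SE) from the fit. With 2 arrays per fraction, precision was low throughout.

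Most of the chain was strongly expressed in both fractions, and its members moved together from array to array more than from fraction to fraction. All 35 members of complex I, all 4 of complex II, all 8 of complex III and all 17 of complex V with a probe were well above background on every array. In complex IV, 17 of 20 were. The exceptions were isoforms of restricted tissues. Cox7b2 and Cox8c reached that mark on no array, and Cox8b was so on replicate 1 of each fraction, at -3.11 in RFP-positive and -2.76 in RFP-negative cells. The 81 other members were tested.

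The median over the 81 members was 4.53 and 4.01 on RFP-positive replicates 1 and 2, against 4.57 and 4.40 on RFP-negative replicates 1 and 2. RFP-positive replicate 2 was thus the low array, while RFP-positive replicate 1 lay between the 2 RFP-negative arrays. The median difference was -0.23, with quartiles at -0.39 and -0.09, beside a median of -0.05 over all 13433 genes tested. Taken array by array, the median member differed from the RFP-negative mean by -0.45 on RFP-positive replicate 2 and by -0.0059 on RFP-positive replicate 1. RFP-positive replicate 2 was below RFP-positive replicate 1 for 75 of 81 members, where the share over all genes was 57.5%, and was the lowest of the 4 arrays for 73, where that share was 41.7%. Within the RFP-negative fraction, replicate 2 was below replicate 1 for 71 of 81 members, where the share over all genes was 52.6%. The median gap between replicates was 0.47 within the RFP-positive and 0.22 within the RFP-negative fraction, against the -0.23 between the fractions.

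**Figure D1:**
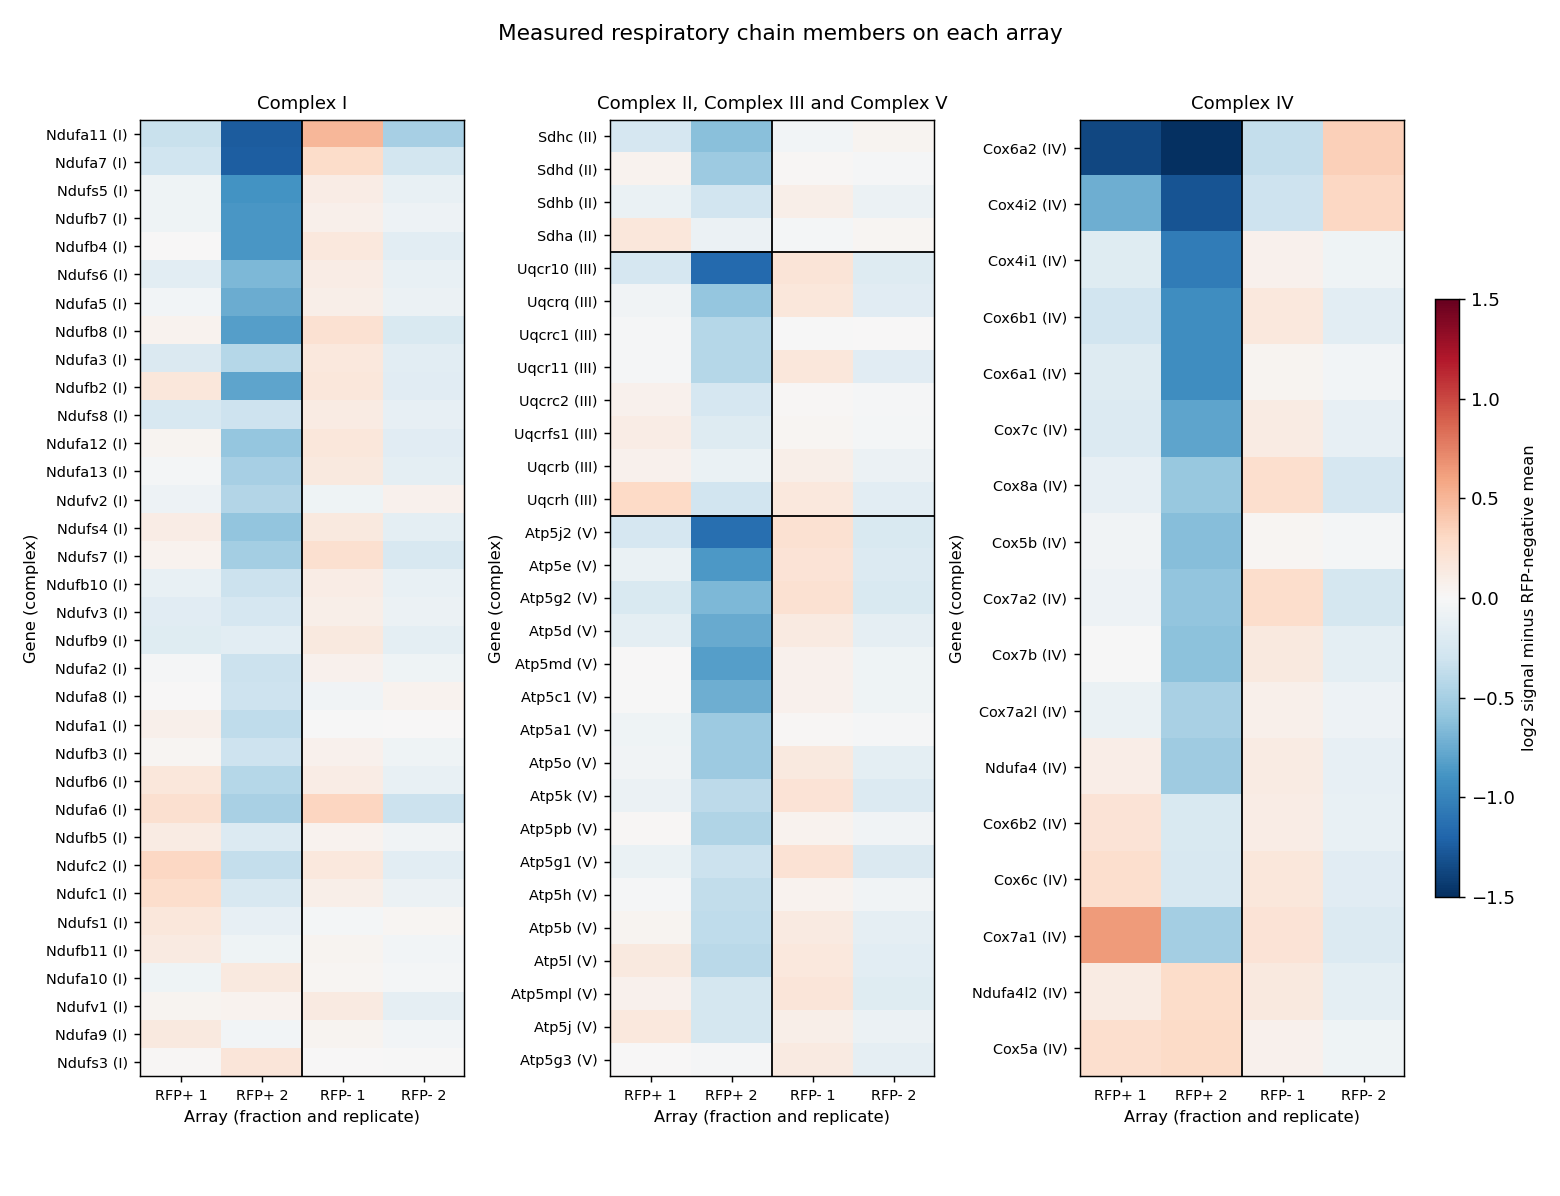
Heat map of the tested members but 1 (rows, by complex and by their difference) on the 4 arrays (columns, RFP-positive left of RFP-negative), coloured by the log2 signal minus the member's mean over the RFP-negative arrays. Most members are blue on RFP-positive replicate 2 and near white on RFP-positive replicate 1, and Cox6a2 and Cox4i2 are blue on both.

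By limma, with p-values adjusted over all genes by Benjamini-Hochberg, 0 members passed an adjusted p of 0.05, and over all genes 0.0% did. At an unadjusted p under 0.05 there were 2 members, both lower in the RFP-positive fraction, where 6.49% of all genes passed, 3.72% lower and 2.77% higher. The adjusted p of the members ran from 0.654 to 0.995. A fitted difference below 0 was found for 68 of 81 members, where the share over all genes was 54.8%. It was found for 59 with quantile normalization, 61 with scaling to the array median and 63 with normexp background correction. The share over all genes in those settings is not given. Both RFP-positive arrays were below both RFP-negative arrays for 22 of 81 members (27.2%), where the share over all genes was 21.6%, and above them for 2 (2.47%), where it was 18.8%. In this scaling the share lower without overlap was thus near that of all genes, while few members were higher. In either direction this makes 24 of 81 members without overlap, where the share over all genes was 40.3%, and 57 with overlap.

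These counts rested on RFP-positive replicate 2. Without it, RFP-positive replicate 1 was below both RFP-negative arrays for 23 of 81 members, where the share over all genes was 32.0%. It was above both for 20 of 81, where 4610 of the 13433 genes tested were. The median difference was then -0.0059. Without RFP-positive replicate 1, 74 members were below both RFP-negative arrays, where the share over all genes was 46.9%, and the median was -0.45. The RFP-negative arrays counted as well. Without RFP-negative replicate 2 the median was -0.34, with 58 members lower without overlap, where the share over all genes was 37.3%. Without RFP-negative replicate 1 it was -0.11, with 23 of 81 lower, where that share was 34.2%, so that the members were then lower less often by count than all genes.

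**Figure D2:**
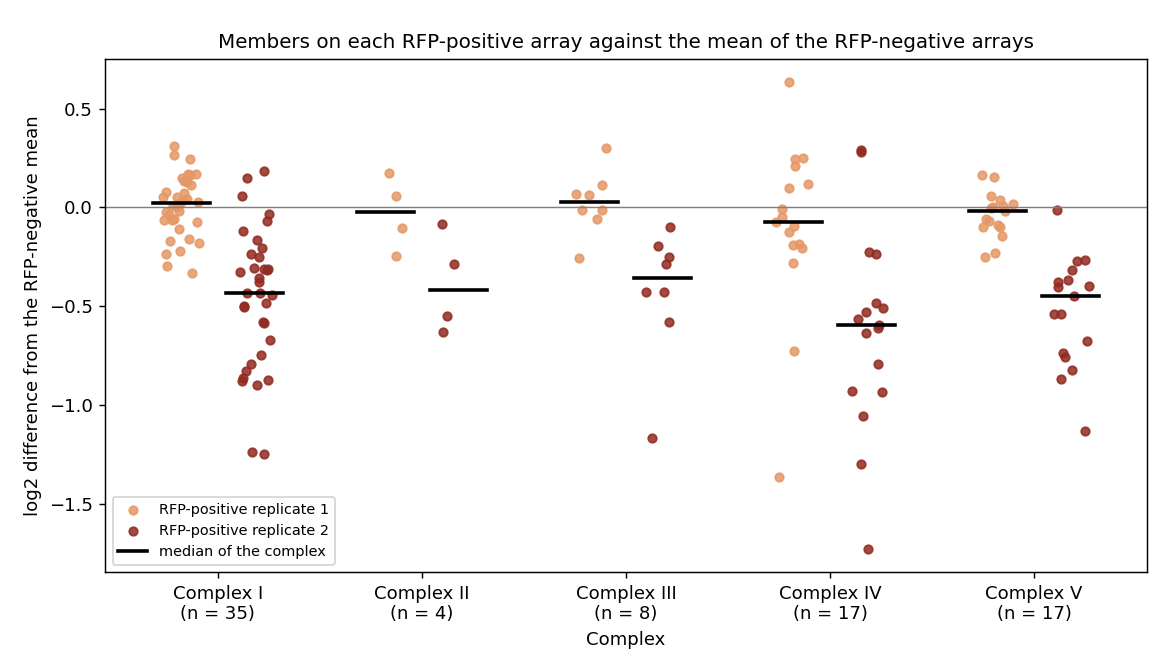
Each point is a member's log2 difference from its mean over the RFP-negative arrays (vertical axis), by complex (horizontal axis), for RFP-positive replicate 1 (orange, left) and replicate 2 (dark red, right), with bars at the medians. The medians of replicate 1 lie between -0.07 and 0.03 and those of replicate 2 between -0.59 and -0.36.

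Promoters are a feature that the choice of members did not use. NRF1, ETS family factors such as GABP, and YY1 are known to bind the promoters of many nuclear genes for respiration. Promoters of 300 bases, 250 before to 50 after the start, were taken from RefSeq on GRCm38.p6 for 68 of the 84 members. On either strand, the palindrome bound by NRF1 was found in 5 members' promoters (7.35%), where the share over the promoters of 27025 genes was 1.07%. CCGGAAG, an ETS site, was found for 17 members (25%, against 9.93%), and ATGGCG, the core of the YY1 motif, for 18 (26.5%, against 10.2%). At least 1 of the 3 was present for 36 members (52.9%, against 19.0%). A match shows only that these letters lie in the window. Members with and without the ETS letters had median differences of -0.24 and -0.23, and members with and without the YY1 letters had -0.23 and -0.24. The 5 members with the NRF1 letters (Atp5g2, Atp5k, Cox6a1, Ndufa11 and Uqcrc1) differed by -0.79 to -0.22.

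The promoters of 4 members are shown, 5' to 3' on the gene's strand. Cox6a1 and Uqcrc1 are the only members lower without overlap whose promoters hold the NRF1 letters and were picked for them, and Cox5a and Ndufs3 are the 2 members higher without overlap. The choice fixes any contrast between these 4, and nothing is read from it. Capitals mark the 3 motifs, no 2 of which overlap in these windows. Cox6a1 holds all 3, Uqcrc1 the NRF1 palindrome alone, Cox5a the YY1 core alone and Ndufs3 the ETS letters at 2 places. They lie on GRCm38.p6 at chr5:115348909-115349208 (minus strand) for Cox6a1, chr9:108936398-108936697 (plus strand) for Uqcrc1, chr9:57520982-57521281 (plus strand) for Cox5a and chr2:90904672-90904971 (minus strand) for Ndufs3.
Cox6a1: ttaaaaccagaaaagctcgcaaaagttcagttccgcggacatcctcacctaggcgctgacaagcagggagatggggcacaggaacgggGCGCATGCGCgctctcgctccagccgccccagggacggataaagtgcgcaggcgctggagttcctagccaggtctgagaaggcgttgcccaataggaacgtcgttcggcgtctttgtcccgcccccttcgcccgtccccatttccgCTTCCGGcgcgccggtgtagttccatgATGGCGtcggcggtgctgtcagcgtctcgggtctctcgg
Uqcrc1: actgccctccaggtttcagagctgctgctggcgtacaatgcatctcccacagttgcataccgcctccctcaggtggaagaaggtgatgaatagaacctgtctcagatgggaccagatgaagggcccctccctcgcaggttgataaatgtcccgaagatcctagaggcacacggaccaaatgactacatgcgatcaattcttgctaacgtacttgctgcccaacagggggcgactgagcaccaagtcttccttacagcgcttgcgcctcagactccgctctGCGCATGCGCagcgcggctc
Cox5a: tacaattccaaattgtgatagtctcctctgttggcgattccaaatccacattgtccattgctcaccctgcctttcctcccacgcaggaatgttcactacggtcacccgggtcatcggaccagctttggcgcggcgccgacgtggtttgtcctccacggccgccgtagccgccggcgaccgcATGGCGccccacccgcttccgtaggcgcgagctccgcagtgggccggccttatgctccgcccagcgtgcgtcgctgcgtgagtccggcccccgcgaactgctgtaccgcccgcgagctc
Ndufs3: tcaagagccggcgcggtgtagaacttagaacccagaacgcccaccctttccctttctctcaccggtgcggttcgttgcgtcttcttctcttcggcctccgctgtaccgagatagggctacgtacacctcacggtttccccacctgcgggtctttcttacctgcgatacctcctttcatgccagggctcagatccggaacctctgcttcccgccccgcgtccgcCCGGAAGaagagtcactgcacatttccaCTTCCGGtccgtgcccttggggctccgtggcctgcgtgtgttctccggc

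Complex I, the largest of the complexes, had a median difference of -0.22 over 35 members, and a median of 0.02 without RFP-positive replicate 2. Without overlap, 7 members (20%) were lower and 1 higher, where 21.6% and 18.8% of all genes were, so that the share lower was that of the background. Its core subunits, which carry the flavin and the iron-sulfur clusters, had a median of -0.23 over 7 members, and the supernumerary subunits around them -0.21 over 28. The 4 members of smallest p were all supernumerary. Ndufa7 was at 4.33 and 3.39 in RFP-positive and 4.90 and 4.35 in RFP-negative cells, a difference of -0.77 (SE 0.42, limma adjusted p 0.75). Its fractions did not overlap, but RFP-positive replicate 1 lay just below RFP-negative replicate 2. Ndufa11, a subunit of the membrane arm, was at 2.62 and 1.70 in RFP-positive and 3.45 and 2.45 in RFP-negative cells, and its arrays overlapped (difference -0.79, SE 0.49).

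Ndufs6, which is needed for the electron-accepting part of the complex, was at 4.85 and 4.34 in RFP-positive and 5.12 and 4.90 in RFP-negative cells. These fractions did not overlap, at a difference of -0.41 (SE 0.28). Ndufs5 was at 2.50 and 1.66 against 2.67 and 2.45, with overlap, in RFP-positive and RFP-negative cells (difference -0.48, SE 0.36). The other members lower without overlap were Ndufa3, Ndufb9 and Ndufv3, which are supernumerary, and the core subunits Ndufs8 and Ndufv2, at differences between -0.33 and -0.17.

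The core subunit Ndufs3 was the only member of complex I higher without overlap. It was at 4.92 and 5.08 in RFP-positive and 4.91 and 4.88 in RFP-negative cells. Its difference of 0.10 (SE 0.23, 95% interval -0.49 to 0.69) was within the error of the fit, and RFP-positive replicate 1 alone differed from the RFP-negative mean by 0.02. Among the other core subunits, Ndufs1 differed by 0.02, Ndufv1 by 0.05 and Ndufs7 by -0.23.

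Complex II links the chain to the citric acid cycle and has 4 subunits, with a median difference of -0.22. Sdhc, a membrane anchor that binds ubiquinone, was at 4.61 and 4.23 in RFP-positive and 4.82 and 4.89 in RFP-negative cells. It was lower without overlap, at -0.44 (SE 0.25, limma adjusted p 0.75), and its second probe differed by -0.39. Sdhd, the other anchor, was at 4.61 and 4.01 against 4.57 and 4.54 in RFP-positive and RFP-negative cells, so that its RFP-positive arrays lay on both sides of the RFP-negative ones. The iron-sulfur subunit Sdhb was lower without overlap, at 2.16 and 1.98 in RFP-positive and 2.35 and 2.18 in RFP-negative cells (difference -0.20, SE 0.24). Sdha, the flavoprotein that oxidises succinate, was at 3.73 and 3.47 in RFP-positive and 3.54 and 3.58 in RFP-negative cells, a difference of 0.04 (95% interval -0.57 to 0.66).

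Complex III had a median difference of -0.16 over 8 members, and a median of 0.03 without RFP-positive replicate 2. Without overlap, 2 members (25%) were lower and 0 higher, where 21.6% and 18.8% of all genes were, so that the share lower was near that of all genes. Uqcr10, a small subunit beside the Rieske protein, was at 4.97 and 4.06 in RFP-positive and 5.42 and 5.03 in RFP-negative cells. The difference was -0.71 (SE 0.39, limma adjusted p 0.75), and its 3 probes differed by -1.06 to -0.63. Uqcrc1, a large structural subunit, was at 4.10 and 3.68 in RFP-positive and 4.11 and 4.11 in RFP-negative cells. It was lower without overlap, at -0.22, with RFP-positive replicate 1 just below the RFP-negative arrays. Uqcrq, a small subunit, was at 5.05 and 4.53 in RFP-positive and 5.28 and 4.94 in RFP-negative cells, with overlap (difference -0.32). Uqcr11, another, was at 4.43 and 4.01 in RFP-positive and 4.61 and 4.27 in RFP-negative cells, also with overlap (difference -0.22). Uqcrfs1, the Rieske iron-sulfur protein, differed by -0.04, Uqcrb by -0.02 and Uqcrh by 0.0060.

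Complex IV held the largest differences among the members, and they belonged to isoforms of restricted tissues. The complex had a median difference of -0.33 over 17 members, with 8 lower and 1 higher without overlap (47.1% and 5.88%, where the shares over all genes were 21.6% and 18.8%). Without RFP-positive replicate 2 its median was -0.07, and without RFP-positive replicate 1 it was -0.59. Cox6a2 and Cox4i2 were the 2 members at an unadjusted p under 0.05.

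Cox6a2, the subunit 6a isoform of heart and skeletal muscle, was at -3.46 and -3.83 in RFP-positive and -2.45 and -1.75 in RFP-negative cells. Both RFP-positive arrays were at least 2-fold below both RFP-negative arrays, which was true of no other member and of 0.893% of all genes. The difference was -1.55 (SE 0.34, 95% interval -2.43 to -0.66), which is 2.92-fold, with an unadjusted limma p of 0.00673 and an adjusted p of 0.654. It was -1.37 without RFP-positive replicate 2 and -1.19 without RFP-negative replicate 2. With normexp background correction it was -0.55. The RFP-positive signals of Cox6a2 lay near the floor. The lowest signals marked well above background were -3.98 and -4.54 on RFP-positive replicates 1 and 2. The size of the fold difference thus depends on the background correction.

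Cox4i2, the subunit 4 isoform known from lung and from cells under low oxygen, was at -1.22 and -1.79 in RFP-positive and -0.80 and -0.19 in RFP-negative cells. The fractions did not overlap, and the difference was -1.01 (SE 0.35, 95% interval -1.93 to -0.10), which is 2.02-fold, with an unadjusted limma p of 0.0361 and an adjusted p of 0.745. It was -0.73 without RFP-positive replicate 2, -0.70 without RFP-negative replicate 2 and -0.60 with normexp. Cox6a2 and Cox4i2 were lower on each RFP-positive array alone, at -1.37 and -0.73 on replicate 1 and at -1.73 and -1.30 on replicate 2 against the RFP-negative mean.

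**Figure D3:**
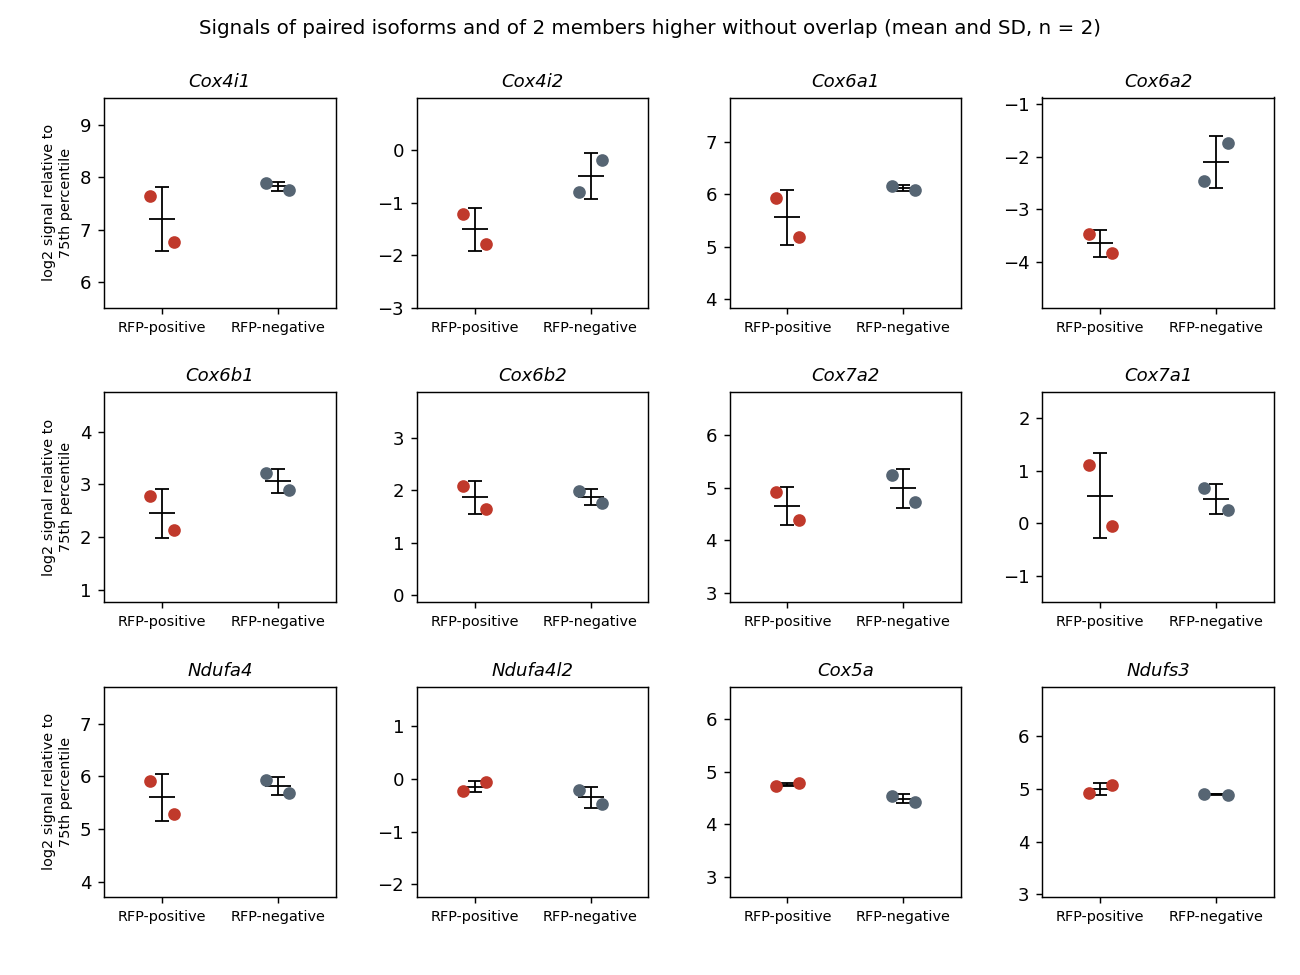
Log2 signal, with each array's 75th percentile at 0 (vertical axes, each spanning 4 units) of 12 members in RFP-positive (red, left) and RFP-negative (grey, right) cells, with points for the 2 arrays and bars for the mean and SD. Cox6a2 and Cox4i2 are lower in both RFP-positive arrays, at -1.55 and -1.01 on average, while Cox5a and Ndufs3 are higher by 0.27 and 0.10.

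The common paralogues of these isoforms were lower as well, chiefly on RFP-positive replicate 2. Cox4i1 was at 7.64 and 6.77 in RFP-positive and 7.89 and 7.76 in RFP-negative cells (difference -0.62, SE 0.36, limma adjusted p 0.75). Cox6a1 was at 5.93 and 5.19 in RFP-positive and 6.16 and 6.07 in RFP-negative cells (difference -0.56, SE 0.33). Neither pair of fractions overlapped, but the differences of Cox4i1 and Cox6a1 were -0.19 and -0.19 without RFP-positive replicate 2.

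The 6b pair did not move alike by value, though the difference between its members was not tested. Cox6b1, which helps to hold the dimer of the complex together, was at 2.78 and 2.12 in RFP-positive and 3.22 and 2.90 in RFP-negative cells, lower without overlap, at -0.61 (SE 0.32). Cox6b2, a form known from testis, was at 2.08 and 1.65 in RFP-positive and 1.98 and 1.76 in RFP-negative cells. Its difference of -0.0072 had a 95% interval of -0.72 to 0.70, and its sign turned under several alternatives.

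Most of the remaining isoforms overlapped between the fractions. Cox7a1, of heart, muscle and brown fat, was at 1.1 and -0.04 in RFP-positive and 0.67 and 0.26 in RFP-negative cells, so that its RFP-positive arrays enclosed the RFP-negative ones. Its difference of 0.06 had a 95% interval of -1.11 to 1.24. The common Cox7a2 was at 4.91 and 4.39 in RFP-positive and 5.24 and 4.73 in RFP-negative cells, a difference of -0.33. Cox7a2l, lower without overlap, was at 6.92 and 6.53 in RFP-positive and 7.10 and 6.94 in RFP-negative cells, a difference of -0.29 (SE 0.26). Ndufa4, now counted with complex IV, was at 5.91 and 5.29 in RFP-positive and 5.94 and 5.69 in RFP-negative cells, with overlap (difference -0.22).

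Ndufa4l2, a relative known as a hypoxia target, was at -0.22 and -0.06 in RFP-positive and -0.20 and -0.48 in RFP-negative cells, a difference of 0.20 (95% interval -0.44 to 0.84). Cox7b, the partner of Cox7b2, was at 4.16 and 3.55 in RFP-positive and 4.31 and 4.02 in RFP-negative cells (difference -0.31). Cox8a, the common form of subunit 8, was at 5.64 and 5.20 in RFP-positive and 6.01 and 5.52 in RFP-negative cells (difference -0.34). The arrays of all 3 overlapped between the fractions.

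Cox5a, a common subunit on the matrix side, was the only member of complex IV higher without overlap. It was at 4.73 and 4.78 in RFP-positive and 4.55 and 4.42 in RFP-negative cells. The difference of 0.27 (SE 0.23, 95% interval -0.32 to 0.86) was within the error of the fit (limma adjusted p 0.780). It ran from 0.21 to 0.37 over the alternatives. Its partner Cox5b, which binds zinc, was lower without overlap, at -0.34, and Cox7c, a small membrane subunit, by -0.50.

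In the main scaling all 17 members of complex V had a difference below 0, where 54.8% of all genes did. They ran from -0.69 to -0.0058, with a median of -0.24. The nearest to 0, Atp5g3, was above 0 with quantile normalization, scaling to the array median and the deposited value table. Of the 17 members, 3 were lower without overlap (17.6%), no more than the 21.6% of all genes. Without RFP-positive replicate 2 the median was -0.02. The subunits of F1, the catalytic part, had a median of -0.37 over 5 members and those of the membrane part and peripheral stalk -0.21 over 12. Atp5j2, the f subunit of the membrane part, was at 4.96 and 4.08 in RFP-positive and 5.44 and 4.99 in RFP-negative cells. It differed by -0.69 (SE 0.39, limma adjusted p 0.75) at the probe used and by -0.16 at its other probe. Atp5d, the delta subunit of F1, was lower without overlap, at 3.23 and 2.61 in RFP-positive and 3.51 and 3.23 in RFP-negative cells (difference -0.45, SE 0.31).

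Atp5e, the epsilon subunit, was at 6.26 and 5.49 in RFP-positive and 6.56 and 6.16 in RFP-negative cells, with overlap (difference -0.48). The F1 subunits Atp5a1 and Atp5b differed by -0.31 and -0.17, and the fractions of Atp5a1 did not overlap. The 3 genes for the proton-conducting c ring encode the same mature protein. Atp5g2 was at 6.30 and 5.86 in RFP-positive and 6.77 and 6.30 in RFP-negative cells, a difference of -0.45 (SE 0.30). Atp5g1 was at 4.53 and 4.31 in RFP-positive and 4.85 and 4.42 in RFP-negative cells (difference -0.21). Atp5g3 was at 4.40 and 4.38 in RFP-positive and 4.53 and 4.26 in RFP-negative cells (difference -0.0058). The arrays of all 3 overlapped. Atp5l, the g subunit, had 5 probes, 4 of which differed by -0.17 to -0.12 and 1 by 0.49.

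The members were also read relative to each other, by centring each array on the median of the 81 tested members. On that scale 60 of 81 members lay within 0.25 of no difference between the fractions. Both RFP-positive arrays were below both RFP-negative arrays for 22 members and above them for 17. Over all genes the shares on this scale were 12.1% below and 24.1% above, where the main scaling gave 21.6% and 18.8%. That shift is made by the centring, which balances the members by construction and raises every gene on the array where the members were low. The counts of members therefore cannot be judged against these shares, and no excess is read from them. Cox6a2 and Cox4i2 stood at -1.33 and -0.80 without overlap, and Ndufa11 at -0.57 with overlap. Ndufa7, Uqcr10, Atp5j2 and Cox4i1 followed at -0.55, -0.49, -0.48 and -0.40, without overlap. Cox5a and Ndufa4l2 were higher without overlap, at 0.49 and 0.42, while Ndufs3, at 0.32, overlapped on this scale. Such values show unequal differences within an array and not which gene differed.

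Of 22 members with more than 1 probe well above background on all arrays, 2 had probes of opposite sign, Atp5l and Uqcrh. Many of these genes have pseudogenes or close paralogues, and whether their probes bind other transcripts was not tested.

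Genes that build, feed and regulate the chain were read from lists of related genes, whose counts without overlap stand beside 21.6% of all genes lower and 18.8% higher. The complex I assembly list, which also holds the subunit Ndufab1, had a median difference of -0.17 over 14 genes, with 4 lower and 1 higher (Ndufab1) without overlap, and assembly factors of complexes II to V had -0.20 over 28, with 5 lower and 3 higher. Cox10, which makes haem O, the precursor of the haem A of complex IV, was lower without overlap, at -0.85 (SE 0.25), and the biogenesis factors Cox19 and Cox14 by -0.65 and -0.63. Of the complex I factors, Ndufaf5 and Ndufaf2 were lower without overlap, at -0.74 and -0.68. Ndufab1, the acyl carrier protein of the mitochondrion, was higher without overlap by 0.65.

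Genes for cytochrome c and coenzyme Q had a median of -0.19 over 15, with 5 lower and 2 higher without overlap. Coq4 was at -0.70 and Coq8a at 0.67, both without overlap and both needed to make coenzyme Q. Pdss2, which makes its side chain, was lower without overlap, at -0.39. Cycs, the cytochrome c of body cells, was at 4.09 and 3.42 in RFP-positive and 4.07 and 3.85 in RFP-negative cells, with overlap (difference -0.21).

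The citric acid cycle list had a median of -0.13 over 18 genes, with 6 lower and 2 higher without overlap. Pcx, which makes oxaloacetate from pyruvate, was at -3.36 and -3.08 in RFP-positive and -1.95 and -1.40 in RFP-negative cells, without overlap (difference -1.55, SE 0.30, limma adjusted p 0.618). Dlat differed by 0.59 and Idh3g by -0.35. Fatty acid oxidation had a median of -0.12 over 16 genes, with 4 lower and 2 higher without overlap. Cpt1a, the entry step of that pathway, was at -2.59 and -3.08 in RFP-positive and -1.54 and -0.80 in RFP-negative cells (difference -1.66, SE 0.36, limma adjusted p 0.654). Cpt1b, its muscle form, differed by 0.42 and Etfb by -0.50.

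Import genes had a median of -0.17 over 21, with 3 lower and 2 higher without overlap. Their 3 genes of smallest p were Timm17b at -0.58, Tomm70a at 0.37 and Timm17a at -0.38. Genes of the mitochondrial ribosome had a median of -0.16 over 46, with 11 lower and 4 higher, and Mrps15, Mrpl19 and Mrps11 at -0.75, -0.62 and -0.60. The list for expression of mitochondrial DNA had a median of -0.07 over 16 genes, with 4 lower and 3 higher. Tfam, which packages and transcribes that DNA, was at 1.70 and 0.90 in RFP-positive and 2.0 and 1.90 in RFP-negative cells. It was lower without overlap, at -0.65 (SE 0.34), and Mterf1a was higher, at 0.38. The helicase Twnk, among the 4 lower, was not well above background on RFP-positive replicate 2. It was tested only because of its RFP-negative arrays, so that its place in this count is no support for a difference. On RFP-positive replicate 1 Twnk differed from the RFP-negative mean by -0.057.

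Regulators of mitochondrial biogenesis had a median of 0.15 over 20 genes, with 8 higher (40%) and 3 lower (15%) without overlap, where 18.8% and 21.6% of all genes were. The 8 include Esrrg, not well above background on RFP-negative replicate 2, and Ppargc1b, not so on RFP-negative replicate 1. Both were tested only because of their RFP-positive arrays, so that their place in this count is no support for a difference. Ppargc1a, the coactivator best known for inducing the chain, was below that mark on all 4 arrays, and Ppargc1b was at -3.43 and -3.60 in RFP-positive and -3.61 and -3.61 in RFP-negative cells and was measured on 3 arrays. Nrf1 differed by -0.28, Esrra by 0.18 and Hif1a by 0.24, all with overlap. Pparg was lower without overlap, at -1.41 and the mitochondrial deacetylase Sirt3 by -0.65, while Hcfc1, a cofactor of transcription, was higher by 0.67. Genes for uncoupling and antioxidant defence had a median of -0.14 over 15, with 7 lower and 3 higher, and Gpx4 and Gpx1 at -0.78 and -0.65. Aox1 was not well above background on RFP-positive replicate 2, and on RFP-positive replicate 1 it differed from the RFP-negative mean by -1.05. It was tested only because of its RFP-negative arrays, so that any place in these counts is no support for a difference.

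**Figure D4:**
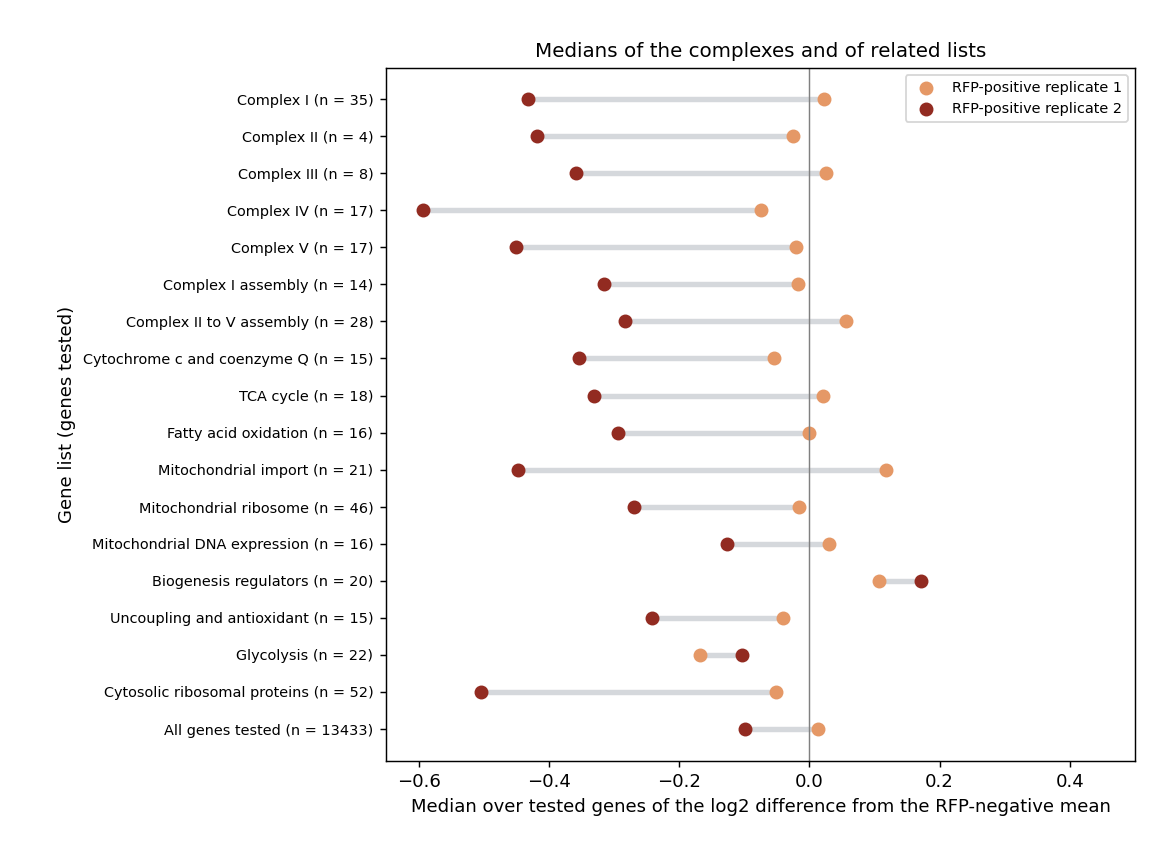
Median over the tested genes of each list (rows) of the log2 difference from the RFP-negative mean (horizontal axis), for RFP-positive replicate 1 (orange) and replicate 2 (dark red). The 5 complexes lie at -0.59 to -0.36 on replicate 2 and near 0 on replicate 1, as do the cytosolic ribosomal proteins at -0.50 and -0.05.

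Cytosolic ribosomal proteins had medians of -0.05 and -0.50 on RFP-positive replicates 1 and 2 against the RFP-negative mean, beside -0.0059 and -0.45 for the members. Their median difference was -0.28 over 52 genes, with 16 lower (30.8%) and 0 higher without overlap, where 21.6% and 18.8% of all genes were. RFP-positive replicate 2 was below RFP-positive replicate 1 for 52 of 52, where the share over all genes was 57.5%, and RFP-negative replicate 2 was below RFP-negative replicate 1 for 51 of 52, where it was 52.6%. Their 3 genes of smallest p, Rpl28, Rps26 and Rpl27a, were at -0.79, -0.65 and -0.78. Glycolysis genes had medians of -0.17 on RFP-positive replicate 1 and -0.10 on replicate 2 against the RFP-negative mean. Of 22, 7 were lower and 3 higher without overlap, with Pfkl at -0.58, Pgam1 at -0.50 and Hk1 at 0.34. The part of RNA quality or labelling in the gap between replicates was not tested.

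Markers of adipocytes and of OP9 stroma were mostly lower on both RFP-positive arrays, as Cox6a2 and Cox4i2 were, while those of endothelium and blood were not. Of 8 adipocyte markers tested, 7 were lower without overlap, where the share over all genes was 21.6%, with a median of -1.63, and their summed level was 4.28 and 3.78 in RFP-positive and 5.55 and 5.80 in RFP-negative cells. Leptin (Lep) was not well above background. Of 7 markers of OP9 stroma and fibroblasts tested, 5 were lower without overlap, with a median of -0.73 and summed levels of 4.48 and 4.42 in RFP-positive and 4.76 and 5.44 in RFP-negative cells, while Dcn and Postn were well above background on no array. Of 5 muscle markers tested, 0 were lower and 1 was higher without overlap, Tnnt2 by 0.65, with summed levels of 2.49 and 2.69 against 2.17 and 2.68 in RFP-positive and RFP-negative cells, and Ckm was well above background on no array. Among 4 markers of brown or beige fat only Cidea was tested, at a difference of -0.03, and Ucp1 and Dio2 were well above background on no array. Of 6 endothelial markers, 4 were higher and 0 lower without overlap, where the shares over all genes were 18.8% and 21.6%, with a median of 0.21. Of 4 blood markers tested, 2 were higher and 0 lower without overlap, where the shares over all genes were 18.8% and 21.6%, with a median of 0.53. Gata1 and Itga2b were higher without overlap, at 1.44 and 0.59. Hbb-bh1, at 0.46, and Ptprc, at -0.40, overlapped. Hbb-y and Klf1 were well above background only on RFP-positive replicate 1, and Hba-x on no array. Of 3 endoderm markers tested, 1 was lower, Epcam at -1.55, with a median of 0.14. Of 3 pluripotency markers tested, Pou5f1 was lower without overlap, at -1.05, with a median of -0.48. The germ line markers Dazl, Ddx4 and Tnp1 were well above background on no array. A further germ line marker, Prm1, was not well above background on RFP-positive replicate 2 and was tested only because of its RFP-negative arrays. On RFP-positive replicate 1 Prm1 differed from the RFP-negative mean by -0.17. The part of these cell types in the differences of Cox6a2 and Cox4i2 was not tested.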

How the data were processed

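RNA of the sorted cells was labelled with Cy3 and hybridised to 4 one-colour arrays, per the labels. Per the file headers, the deposited intensity values are background-subtracted processed signals written by version 10.10.1.1 of Agilent's Feature Extraction. All arrays shared 1 slide and 1 scan, which leaves no batch to test. The authors' value table holds the same intensity times 1 constant per array (5.39 to 6.45), whose origin is not stated.

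Control spots (3671) and outlier spots (115 to 153 per array) were left out. Signals were divided by the array's 75th percentile, put on the log2 scale and averaged over spots of a probe. Of 55681 probes, 27235 had 1 symbol through their RefSeq accession (gene table of GRCm38), 0 had several and 28446 had none. The probe of highest mean stood for a gene, and 13433 genes well above background on both arrays of at least 1 fraction were tested with limma 3.58.1 in R 4.3.3, two-sided, without a block, with Benjamini-Hochberg adjustment and a threshold of 0.05. The fit was tested on simulated data. Files and figures were handled with Python 3.11.15, pandas 2.3.3 and matplotlib 3.10.9. An exact permutation test of 2 against 2 arrays cannot give a p under 0.333, so none is given.

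Members and lists were chosen with earlier results of these data known, so lists are described by counts and medians and are not tested. Every member may be named. Given in full are the 4 members of smallest p in each complex and the paired isoforms, and, chosen after their values were seen, the 2 members higher without overlap. No member is ranked by brightness, since levels of different probes are not comparable. The centring on the members was also added after values were seen. Up to 3 genes of smallest p are named per related list, with a few fixed regulators. One member enters the counts and medians but is not reported here by itself. A planned comparison of paralogous proteins was not made.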

Additional observations from a re-analysis of the deposited data

How the results depend on the processing

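With 2 arrays per fraction, 0 genes and 0 members passed an adjusted p of 0.05 in limma under any of 13 alternatives. Unadjusted, 872 genes passed, and 387 to 2754 did when an array was left out. A lone array left in a fraction was assumed to vary like the others. The median of the members was -0.23 and stayed between -0.24 and -0.14 under other scalings, filters, probes and background correction, and ran from -0.45 to -0.0059 when an array was left out. Without the tissue isoforms and Cox7a2l it was -0.23.

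The number of members lower without overlap was 22 of 81, where the share over all genes was 21.6%. It was 13 with scaling to the array median, where that share was 16.6%. With quantile normalization and with the deposited value table it was 26, where that share was 20.1% and 19.5%. When an array was left out it ran from 23 to 74, and the share over all genes from 32.0% to 46.9%. Complex IV had a median of -0.33, and -0.59 to -0.074 when an array was left out. Of 33 members given in full, 26 kept their sign throughout. With quantile normalization, scaling to the median, normexp and the deposited value table, Cox6b2 (-0.0072) was at 0.0050, 0.077, 0.044 and 0.057. Atp5g3 (-0.0058) was at 0.0996, 0.078 and 0.058 with quantile normalization, scaling to the median and the deposited table. Leaving out an array turned the sign of 7 members, with ranges of -0.55 to 0.055 for Sdhd, -0.086 to 0.17 for Sdha, -0.22 to 0.21 for Cox6b2, -0.51 to 0.64 for Cox7a1, -0.53 to 0.096 for Ndufa4, -0.42 to 0.0074 for Atp5g1 and -0.14 to 0.12 for Atp5g3.

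With the replicate number as a block, 0 members passed and the median of the members was -0.23. The numbers share no stated culture, and deviations of same-numbered arrays correlated at 0.09 across 13433 genes, so that they were not taken as pairs.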
